A study of Mus musculus with 6 samples.

Results

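Levels of 10 genes best known from fat cells were followed in spleen RNA of female NOD mice, the strain that develops autoimmune diabetes spontaneously. They were Adipoq, Car3, Cfd, Fabp4, Lep, Retn, Plin1, Cidec, Lpl and Pparg, chosen by their differences between the groups on these same 6 arrays, seen beforehand, and all probe sets annotated to them were taken. Of the 10 genes, 8 had annotated probe sets, 15 in all among the 45037 probe sets tested. Cfd, which encodes the complement protease known as adipsin, and Plin1, which encodes a lipid droplet coat protein, had no annotated probe set. They could not be followed by name. The annotation used names no gene for 9160 probe sets, so the array may still measure Cfd or Plin1 under one of these. Each gene is represented by its brightest probe set, the one with the highest mean over the 6 arrays, and 5 of the 8 genes had only 1.

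The arrays compared 3 groups of NOD females, each 32 to 36 weeks old by the labels. The first was TSA-treated: trichostatin A, an inhibitor of histone deacetylases, was injected under the skin at 500 µg per kg once a week between 18 and 24 weeks of age, and only mice that remained free of diabetes were taken. The second was untreated diabetic and the third untreated non-diabetic, and neither received vehicle. Each group was 1 RNA pool of 3 to 5 mice hybridized on 2 arrays, so the spread between arrays is that of labelling and hybridization of 1 pool and not that of mice. The methods give younger ages than the labels, and a younger range for the diabetic than for the TSA-treated mice. By those ages, age and group cannot be told apart in that comparison. The methods also give slightly larger pools, and describe RNA from whole spleens where the labels name splenocytes.

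Adipocytes store triglyceride in a large droplet and release hormones such as adiponectin, leptin and resistin. They are not a normal resident of the spleen pulp, but fat tissue adjoins the splenic hilum, and several of these genes are also used by macrophages, endothelium or muscle. Adipoq encodes adiponectin, Lep leptin and Retn resistin, which in mice is made mainly by fat cells. Car3 encodes a cytosolic carbonic anhydrase abundant in fat, muscle and liver. Lpl encodes lipoprotein lipase, which frees fatty acids from circulating triglyceride, and Fabp4 a fatty acid carrier of adipocytes, macrophages and endothelial cells. Cidec encodes a protein that enlarges lipid droplets. Pparg encodes the nuclear receptor that drives fat cell formation, and is also used by some macrophages and regulatory T cells.

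The stretches of 250 bases before the transcription start of 3 of the hormone genes are shown because Adipoq and Retn were both lower on the TSA-treated arrays while Lep stayed at the low end of all 6. They are RefSeq sequences on GRCm38.p6, from a promoter table in which 7 of the 10 genes were matched. Car3, Fabp4 and Lpl were not matched. All 3 lie on the plus strand, and are written 5′ to 3′ with CCAAT boxes in capitals.
Adipoq, chr16:23146286-23146535: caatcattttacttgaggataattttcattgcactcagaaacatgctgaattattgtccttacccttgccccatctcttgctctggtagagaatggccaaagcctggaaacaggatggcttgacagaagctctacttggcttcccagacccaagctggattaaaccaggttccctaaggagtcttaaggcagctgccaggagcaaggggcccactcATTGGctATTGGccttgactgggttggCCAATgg
Retn, chr8:3655520-3655769: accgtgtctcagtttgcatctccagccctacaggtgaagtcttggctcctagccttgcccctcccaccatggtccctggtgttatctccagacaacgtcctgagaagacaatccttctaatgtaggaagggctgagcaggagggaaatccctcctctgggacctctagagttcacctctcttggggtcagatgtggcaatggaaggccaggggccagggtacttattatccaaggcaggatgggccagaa
Lep, chr6:29059971-29060220: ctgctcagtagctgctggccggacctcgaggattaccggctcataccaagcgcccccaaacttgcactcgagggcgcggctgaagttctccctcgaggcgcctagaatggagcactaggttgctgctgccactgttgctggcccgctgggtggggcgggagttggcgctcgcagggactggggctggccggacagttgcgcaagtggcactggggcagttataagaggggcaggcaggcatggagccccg
Motifs were searched on both strands as plain letters. Whether any motif bears on the levels was not tested. The Adipoq stretch held 3 CCAAT boxes, of which those at -34 to -30 and -27 to -23 from the start are on the minus strand and appear as ATTGG, and the one at -7 to -3 is on the plus strand. Neither the Retn nor the Lep stretch held a CCAAT box. Among 32851 promoters of the same length, 33.8% held at least 1. The E box, CANNTG, occurred 1 time in the Adipoq stretch and 2 times each in those of Retn and Lep, and 66.2% of all promoters held it. The nuclear receptor motif AGGTCA, found in 14.0% of promoters, was absent from all 3 stretches and present in 2 of the 3 promoters of Pparg. The repeat AGGTCANAGGTCA was in 0.0335% of promoters and in none of the 10 promoters of the genes followed, and TATAAA was in 12.4% of promoters and in 1 of Pparg.

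Before the levels, 2 facts of the arrays bear on them. The TSA-treated duplicates differed most, with a standard deviation of 0.59 for the log2 difference between the 2 arrays over all probe sets, against 0.52 in the untreated diabetic and 0.25 in the untreated non-diabetic pair. The gap between the 3′ and 5′ control signals of beta-actin, a sign of RNA or target length, was 3.45 and 5.61 on the log2 scale in the TSA-treated arrays, 2.42 and 3.32 in the untreated diabetic and 2.35 and 2.05 in the untreated non-diabetic arrays. Genes listed as markers of pancreatic acinar cells, a cell type foreign to the spleen, were bright in 2 of the pools: the summed linear level of 10 measured markers was 4890 and 4330 in the TSA-treated arrays, 29354 and 29563 in the untreated diabetic and 388 and 338 in the untreated non-diabetic arrays. The B and T lymphocyte markers expected of spleen were bright on every array, with a median log2 level over 9 genes between 8.38 and 9.75. In pooled bulk RNA, fewer cells of a type and less RNA per cell cannot be told apart, here or in any value that follows.

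Adiponectin RNA was at the low end of the array in TSA-treated spleen and well above it in both untreated groups. Adipoq (chr16:23146536-23157968) read 2.83 and 2.88 on the log2 scale in the TSA-treated arrays, 5.72 and 6.13 in the untreated diabetic arrays, and 6.29 and 6.23 in the untreated non-diabetic arrays. The TSA-treated arrays lay apart from both untreated groups, while the diabetic arrays sat just under the non-diabetic ones. Adipoq stood at the 22.2 and 16.8 percentile of all probe sets in the TSA-treated arrays, against 72.0 and 75.3 in the diabetic and 77.1 and 76.6 in the non-diabetic arrays. The lower quartile of an array was between 2.89 and 3.09, so the TSA-treated values were below the lower quartile, where a true level below that shown could not be seen. The table used here holds no detection calls, so presence or absence cannot be stated. Adipoq averaged 2.86 ± 0.03 in TSA-treated spleen, 5.92 ± 0.29 in untreated diabetic and 6.26 ± 0.05 in untreated non-diabetic spleen (SD, n = 2 arrays each). The difference was -3.40 (SE 0.19) between TSA-treated and non-diabetic spleen, or 10.6-fold lower, and -3.06 (SE 0.19) between TSA-treated and diabetic spleen, or 8.37-fold lower. Between diabetic and non-diabetic spleen it was -0.34 (SE 0.19), or 1.26-fold lower.

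Car3 (chr3:14863538-14872381) was brighter throughout and kept the same order. Its values were 5.09 and 5.13 in TSA-treated, 8.08 and 8.50 in untreated diabetic and 9.02 and 8.99 in untreated non-diabetic arrays. No group overlapped another, and the TSA-treated level was still above the array medians of 3.79 to 3.95. Means were 5.11 ± 0.03 for TSA-treated, 8.29 ± 0.30 for diabetic and 9.01 ± 0.02 for non-diabetic spleen (SD, n = 2 arrays each). The difference from non-diabetic spleen was -3.90 (SE 0.19), 14.9-fold lower, in TSA-treated spleen and -0.72 (SE 0.19), 1.65-fold lower, in diabetic spleen. TSA-treated spleen differed from diabetic spleen by -3.18 (SE 0.19), 9.08-fold lower.

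The 3 other probe sets of Car3 showed less. The second brightest, 1460256_at, read 4.23 and 4.67 in the TSA-treated, 4.83 and 5.07 in the untreated diabetic and 5.69 and 5.94 in the untreated non-diabetic arrays. Its order was that of the brightest probe set, at -1.36 (SE 0.22) for TSA-treated minus non-diabetic and -0.50 (SE 0.22) for TSA-treated minus diabetic spleen. The 2 dimmest, 1430584_s_at and 1453588_at, differed by -0.27 and -0.03 between TSA-treated and non-diabetic spleen, and were below the array median on every array. With the mean of all 4 probe sets in place of the brightest, the difference between TSA-treated and non-diabetic spleen was -1.39, so the size of the Car3 difference, though not its sign, rested on the probe set used.

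Resistin RNA had the same order of groups with smaller differences. Retn (chr8:3655770-3659818) read 4.21 and 4.71 in TSA-treated, 5.40 and 5.23 in untreated diabetic and 5.89 and 5.79 in untreated non-diabetic arrays, and the 3 groups did not overlap. Averages were 4.46 ± 0.36 in TSA-treated, 5.31 ± 0.12 in diabetic and 5.84 ± 0.08 in non-diabetic spleen (SD, n = 2 arrays each). The TSA-treated minus non-diabetic difference was -1.38 (SE 0.22), 2.60-fold lower, the diabetic minus non-diabetic difference -0.53 (SE 0.22), 1.44-fold lower, and the TSA-treated minus diabetic difference -0.85 (SE 0.22), 1.8-fold lower. The TSA-treated duplicates of Retn differed by 0.51, unlike those of Adipoq and Car3, which differed by 0.05 and 0.04.

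Leptin RNA was dim on every array. Lep (chr6:29060221-29073876) read 2.73 and 2.90 in TSA-treated, 2.85 and 2.67 in untreated diabetic and 2.77 and 2.97 in untreated non-diabetic arrays, between the 14.7 and 26.2 percentile of each array. All 3 groups overlapped, and no pair of group means differed by more than 0.11. The TSA-treated level of Adipoq, 2.86, was in this same range of brightness, although levels of different probe sets cannot be set against each other as amounts of RNA. Cidec (chr6:113424634-113435760) gave 2.75 and 3.07 in TSA-treated, 2.96 and 3.14 in untreated diabetic and 3.00 and 3.05 in untreated non-diabetic arrays. Its groups overlapped too, with differences of -0.11 for TSA-treated minus non-diabetic, 0.03 for diabetic minus non-diabetic and -0.14 for TSA-treated minus diabetic spleen (SE 0.18 each). Lep and Cidec were the 2 of the 8 genes below the array median on all 6 arrays. Whether the set as a whole stands for fat cell RNA was not tested.

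**Figure D1:**
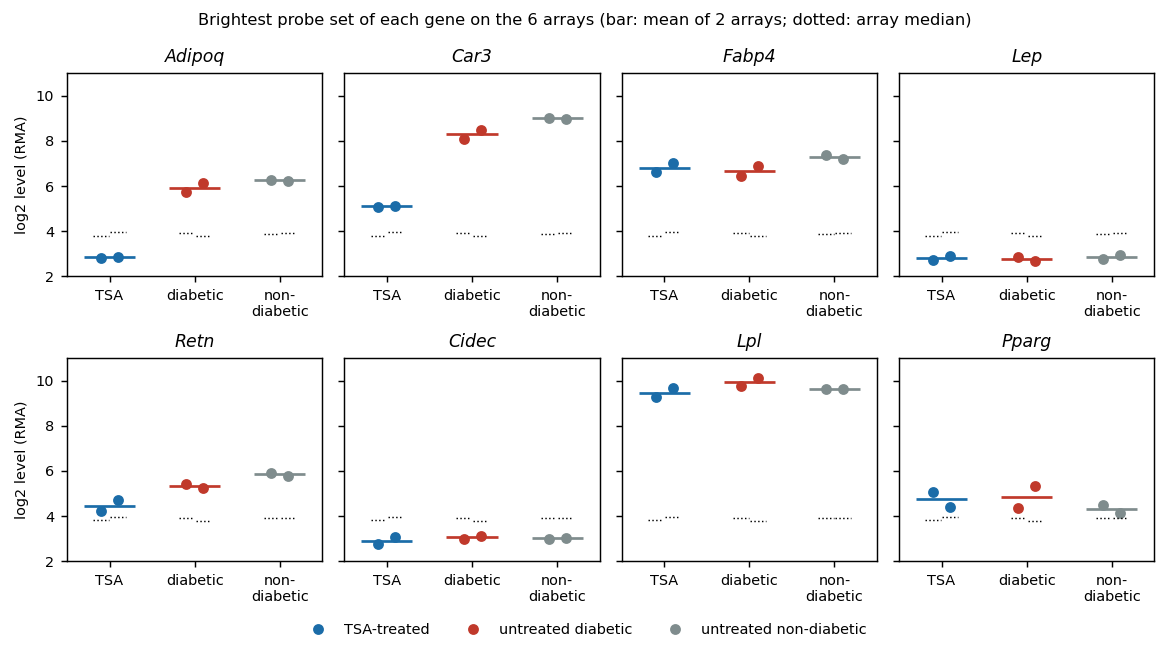
Log2 level (vertical axis) of the brightest probe set of each of the 8 measured genes on the 2 TSA-treated (blue), 2 untreated diabetic (red) and 2 untreated non-diabetic (grey) arrays, with a bar at the mean of each pair and dotted lines at the median of each array. Adipoq and Car3 separate the TSA-treated arrays from the other 4, Retn does so by less, and Lep and Cidec lie under the dotted lines throughout.

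Lpl and Fabp4, genes of lipid handling that macrophages also use, were bright in all groups by the probe set that represents each. Lpl (chr8:68880555-68906932) read 9.25 and 9.69 in TSA-treated, 9.74 and 10.13 in untreated diabetic and 9.63 and 9.64 in untreated non-diabetic arrays, at or above the 95.8 percentile of each. The TSA-treated arrays overlapped the non-diabetic ones and lay under the diabetic ones. The difference was -0.17 (SE 0.22) for TSA-treated minus non-diabetic, 0.30 (SE 0.22) for diabetic minus non-diabetic and -0.47 (SE 0.22) for TSA-treated minus diabetic spleen. The other Lpl probe set, 1431056_a_at, read 4.39 and 3.34 in TSA-treated, 4.55 and 4.85 in diabetic and 4.53 and 4.28 in non-diabetic arrays, so its TSA-treated duplicates were over 1 log2 unit apart.

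Fabp4 (chr3:10204342-10208616) had both its TSA-treated and its diabetic arrays under the non-diabetic ones. It read 6.62 and 7.0 in TSA-treated, 6.43 and 6.87 in untreated diabetic and 7.38 and 7.22 in untreated non-diabetic arrays. The difference from non-diabetic spleen was -0.48 in TSA-treated and -0.65 in diabetic spleen (SE 0.23 each), and TSA-treated and diabetic arrays overlapped, at 0.16 (SE 0.23). Of its 3 other probe sets, 1451263_a_at had the same pattern, at -0.26 for TSA-treated and -0.34 for diabetic minus non-diabetic spleen. The remaining probe sets did not, with TSA-treated minus non-diabetic differences of 0.72 for 1424155_at and 0.05 for 1425809_at, and the last was below the array median on every array.

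Pparg (chr6:115360879-115490404) varied more within the TSA-treated and within the untreated diabetic pair than between any group means. It read 5.06 and 4.40 in TSA-treated, 4.37 and 5.31 in untreated diabetic and 4.47 and 4.12 in untreated non-diabetic arrays. The groups overlapped in all 3 comparisons, with differences of 0.44 for TSA-treated minus non-diabetic, 0.54 for diabetic minus non-diabetic and -0.10 for TSA-treated minus diabetic spleen (SE 0.38 each). The untreated diabetic duplicates alone were 0.95 apart.

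Across the 8 brightest probe sets, TSA-treated arrays lay wholly under the non-diabetic ones for 4 genes, Adipoq, Car3, Retn and Fabp4, and above them for 0. Of all 45037 probe sets, 21.5% lay wholly under and 26.3% wholly above in that comparison. Untreated diabetic arrays lay under non-diabetic ones for the same 4 genes and above them for Lpl, against 19.4% and 21.6% of all probe sets. TSA-treated arrays lay under diabetic ones for 4 genes, Adipoq, Car3, Retn and Lpl, and above them for 0, against 11.4% and 16.2%. These comparisons share arrays pairwise, so they are not independent of one another. The median difference over the 8 genes was -0.33 for TSA-treated minus non-diabetic, -0.22 for diabetic minus non-diabetic and -0.30 for TSA-treated minus diabetic spleen, beside 0.05, 0.01 and 0.02 over all probe sets. With limma and Benjamini-Hochberg adjustment over all probe sets at 0.05, 2 of the 8, Adipoq and Car3, were called lower in TSA-treated than in non-diabetic spleen, where 0.0688% of all probe sets were called, 0.0111% lower and 0.0577% higher. The same 2 were called lower in TSA-treated than in diabetic spleen, where 0.0266% of all probe sets were called, 0.0244% lower and 0.00222% higher. Of the 8 genes 0 were called between diabetic and non-diabetic spleen, where 0.0888% of all probe sets were, 0.00222% lower and 0.0866% higher. At an unadjusted p under 0.05, 3 of the 8 passed between TSA-treated and non-diabetic spleen, where 14.7% of all probe sets did. By that rule 3 passed between TSA-treated and diabetic spleen, beside 4.27% of all probe sets, and 2 between diabetic and non-diabetic spleen, beside 6.27%. Without either of the 2 non-diabetic arrays limma called 0 probe sets between TSA-treated and non-diabetic spleen, and without any 1 array other than TSA-treated replicate 1 it called 0 between TSA-treated and diabetic spleen, Adipoq and Car3 included in both cases. The methods' t-test, adjusted in the same way, called neither gene by its brightest probe set in any comparison. Because the genes were picked with these differences in view, the calls describe them and give no further evidence.

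**Figure D2:**
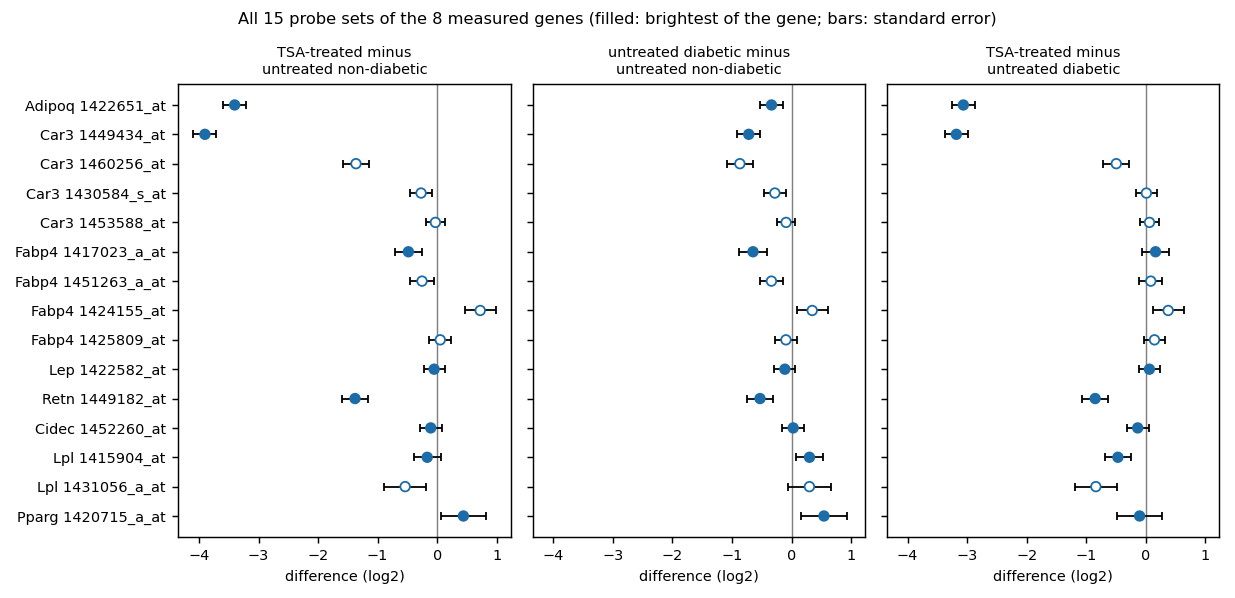
Log2 difference (horizontal axis) of all 15 probe sets in TSA-treated minus untreated non-diabetic, untreated diabetic minus untreated non-diabetic and TSA-treated minus untreated diabetic spleen, with the standard error as bars and the brightest probe set of each gene filled. In both panels with TSA-treated spleen, the Adipoq probe set and 1 of the 4 Car3 probe sets lie 3 or more log2 units under 0, and no other probe set does.

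The genes with profiles closest to that of Adipoq were ranked by the root mean square distance between log2 profiles, each centred on its mean over the 6 arrays. Car3 was the nearest of all probe sets at 0.21. Both genes were chosen by their differences on these same arrays, so this closeness is a description and not a test. The next named genes were Dcn at 0.68, which encodes the matrix proteoglycan decorin, Fcer2a at 0.75, the low affinity IgE receptor of B cells, Map3k5 at 0.76, a stress kinase, and Bcl2 at 0.78, an inhibitor of apoptosis. Retn ranked 216 at 1.02, and Lpl 6459, Fabp4 9580, Cidec 11178, Lep 18883 and Pparg 35850. Dcn read 6.72 and 5.18 in TSA-treated, 8.08 and 7.80 in untreated diabetic and 8.80 and 9.08 in untreated non-diabetic arrays. In Dcn the TSA-treated duplicates were 1.55 apart, with replicate 2, the array with the wider 3′ to 5′ gap, the lower. In Fcer2a, Map3k5 and Bcl2 replicate 2 was likewise the lower, by 1.40, 0.93 and 0.99. The beta-actin gap of these arrays differed by 2.16. Adipoq and Car3 differed by 0.05 and 0.04 between them, Adipoq at the low end of the array where a further drop could not be seen. The part of RNA quality in any of these levels was not tested. Differences from non-diabetic spleen were -2.99 for Dcn, -2.12 for Fcer2a, -2.57 for Map3k5 and -2.06 for Bcl2 in TSA-treated spleen, and none was called by limma (adjusted p between 0.101 and 0.148).

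**Figure D3:**
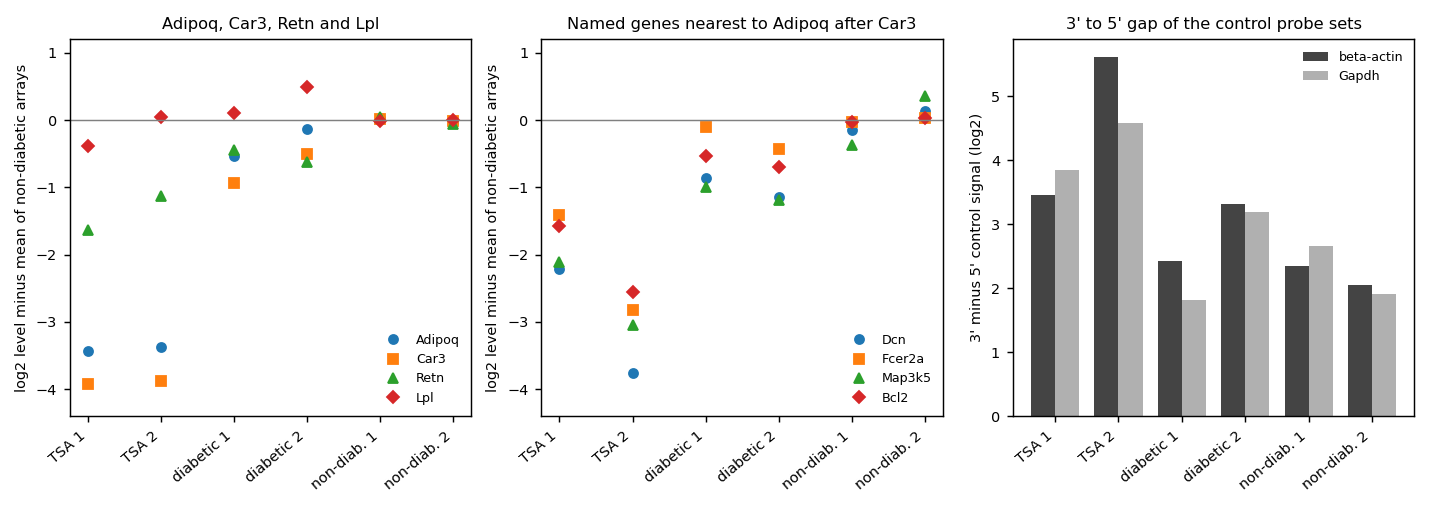
Left and middle, log2 level on each of the 6 arrays minus the mean of the 2 untreated non-diabetic arrays, for Adipoq, Car3, Retn and Lpl and for the 4 named genes nearest to Adipoq after Car3. Right, the 3′ minus 5′ log2 signal of the beta-actin and Gapdh controls on the same arrays, highest on TSA-treated array 2, where the middle genes are lowest and Adipoq and Car3 are level with TSA-treated array 1.

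Other genes of adipocytes were listed by role, and none met the threshold that Adipoq and Car3 met. Adipoq and Car3 were picked by their differences on these arrays, so this contrast is a description and not a test. Of 77 such genes 73 were measured, and limma called 0 of them in any of the 3 comparisons, by 0 of their 154 probe sets. Of all probe sets, 0.0688% were called for TSA-treated and 0.0888% for diabetic against non-diabetic spleen, and 0.0266% for TSA-treated against diabetic spleen. At such shares, 0 calls in a list of this size or smaller do not set its genes apart from the rest. At an unadjusted p under 0.05, 11 of the 73, or 15.1%, passed between TSA-treated and non-diabetic spleen, where 14.7% of all probe sets did. By the same rule 2, or 2.74%, passed for diabetic against non-diabetic spleen, beside 6.27% of all probe sets, and 4, or 5.48%, for TSA-treated against diabetic spleen, beside 4.27%. The methods' t-test called 0 in each comparison. Their median difference was 0.01 for TSA-treated minus non-diabetic, -0.01 for diabetic minus non-diabetic and -0.01 for TSA-treated minus diabetic spleen.

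By role, the lipid droplet and lipolysis list had a median TSA-treated minus non-diabetic difference of 0.00 over 19 measured genes. Its widest members, none of them called, were Abhd5, a coactivator of triglyceride lipase, at 1.17 (7.50 and 7.23 in TSA-treated, 6.31 and 6.08 in non-diabetic arrays), and Pnpla2, the lipase itself, at -0.98. Of these 19 genes 6 were below the array median on every array. The 15 genes of fatty acid and glucose supply had a median of 0.08, with Scd1, a fatty acid desaturase, at -0.78 and Cdo1, a cysteine dioxygenase, at -0.73. The 9 adipogenic transcription factors had a median of -0.05. Ebf1, which also directs B cell formation, read 6.54 and 6.0 in TSA-treated, 8.10 and 6.35 in untreated diabetic and 9.13 and 8.97 in non-diabetic arrays, a difference of -2.78 from non-diabetic spleen in TSA-treated spleen that was not called (limma, adjusted p = 0.14). Cebpa, the partner of Pparg in fat cell formation, differed by -1.19 and was not called.

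The 11 other secreted proteins of fat had a median of 0.03, with Rarres2 (chemerin) at -0.68 and Hp (haptoglobin) at -0.44. The receptors through which the hormones act were measured for 6 genes, with a median of -0.02. The adiponectin receptor Adipor1 read 11.34 and 10.53 in TSA-treated, 10.50 and 10.89 in untreated diabetic and 10.43 and 10.45 in non-diabetic arrays, and the leptin receptor Lepr 5.74 and 5.41 in TSA-treated, 5.20 and 5.62 in diabetic and 5.86 and 5.97 in non-diabetic arrays. Of 8 brown fat genes 6 were below the median of every array, and Ucp1, the uncoupling protein of brown fat, and Cox7a1 differed by only -0.26 and 0.25. The 5 measured partners of lipoprotein lipase had a median of -0.81, with 4 of 5 below 0. Sel1l, which helps lipase leave the endoplasmic reticulum, was at -1.13 and Lmf1, which helps it mature, at -0.96, and neither was called. Among 34 measured paralogs of the genes followed, the median was 0.11 and 0 were called. The erythrocyte carbonic anhydrase Car1 was at 1.43 and the droplet coat gene Plin3 was at -1.45.

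Markers of cells that could share a source with Adipoq and Car3 were read as whole lists. The 8 genes listed as markers of fat stroma were not shown to come from fat in these pools. Their summed linear level was 701 and 608 in TSA-treated, 1146 and 1344 in untreated diabetic and 1598 and 1750 in untreated non-diabetic arrays. This was the same order as that of Adipoq. That order was not particular to this list. The sums of the endothelial genes, the B and T lymphocyte genes and the adipogenic transcription factors kept it too. Of the 8 stromal genes, 7 had TSA-treated minus non-diabetic differences below 0, led by Dcn at -2.99 and Dpt at -1.46, with 0 called and a median of -0.68. For 8 endothelial genes the sum was 413 and 375 in TSA-treated, 427 and 445 in diabetic and 674 and 578 in non-diabetic arrays, with 0 called, a median of -0.50 and Kdr and Pecam1 at -1.34 and -1.27. The 6 mesothelial genes had a median of -0.29 and 0 called, with Upk3b at -1.03 and Msln at -0.36, and 3 of the 6 were below the array median throughout. Of 15 skeletal muscle genes 8 were below the array median on every array, and their median was 0.17, with Mylpf at 1.40 and Myh4 at 0.42 and 0 called. The part of any of these lists in the levels of Adipoq and Car3 was not tested.

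Markers of the spleen's own cells were read in the same way. The B and T lymphocyte sum was 11336 and 6275 in TSA-treated, 14813 and 14442 in untreated diabetic and 16430 and 16143 in untreated non-diabetic arrays, with 9 of 9 genes below 0 against non-diabetic spleen, a median of -1.22, Cd79a at -3.10 and Cd74 at -2.43, and 0 called. The 11 red pulp macrophage genes had a median of 0.19 and 0 called, with only 5 of the 11 below 0. Their sum was 9879 and 9299 in TSA-treated, 9769 and 9857 in diabetic and 8561 and 8507 in non-diabetic arrays. The 2 widest, C1qa at -3.79 and Mertk at -1.99, went against the median. C1qa read 7.24 and 3.42 on the TSA-treated arrays, so the size of its difference rested on 1 array. The 7 erythroid genes had a median of 0.79 and 0 called, with Epb42 at 2.19 and Ermap at 1.38, and the 7 neutrophil genes a median of -0.08 and 0 called, with Ltf at -1.10 and Mmp8 at 0.98. The acinar markers stood in an order unlike that of Adipoq. Of 10, 7 were called higher in TSA-treated than in non-diabetic spleen with a median of 3.40, led by Clps at 5.47, Cpb1 at 5.23 and Zg16 at 4.28 (limma, adjusted p between 0.00203 and 0.00805), and 3 were called lower in TSA-treated than in diabetic spleen with a median of -2.66. In diabetic against non-diabetic spleen 10 of 10 were called higher. The part of the RNA behind these markers in the levels of Adipoq and Car3 was not tested.

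**Figure D4:**
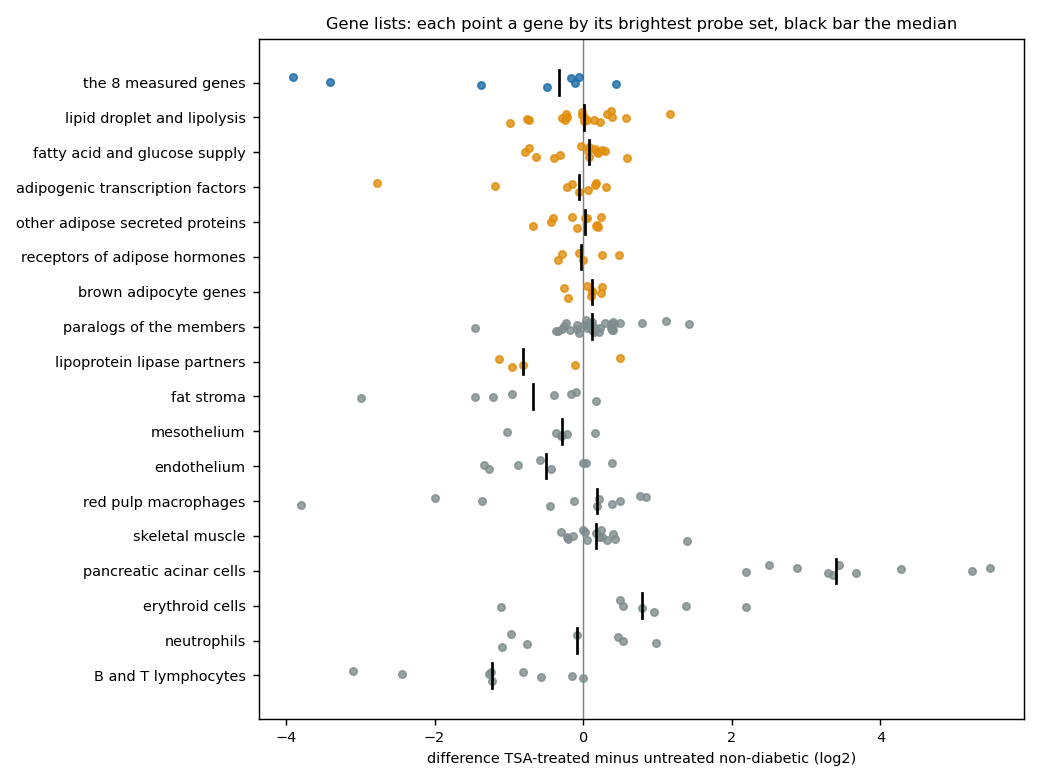
Log2 difference of TSA-treated minus untreated non-diabetic spleen (horizontal axis) for each measured gene by its brightest probe set, in the 8 genes followed (blue), the lists of other adipocyte genes (orange) and the paralogs and cell type markers (grey), with a black bar at each median. Adipoq and Car3 lie at -3.40 and -3.90 on the left. C1qa of the red pulp macrophages at -3.79, with its TSA-treated duplicates far apart, and Cd79a of the lymphocytes at -3.10 also lie there. The orange lists centre on 0 except for the partners of lipoprotein lipase at -0.81.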

How the data were processed

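Labels name RMA as the method behind the values. The authors deposited log2 levels for 45101 probe sets on 6 arrays, normalized together, and the version of the tool was not given in the sources used here. No test used the 64 probe sets that serve as controls of the array. Of the rest, 34945 named 1 gene, 932 several and 9160 none in the platform annotation. The deposited values were used as they are. limma 3.58.1 in R 4.3.3 fitted 1 mean per group over all 6 arrays, and p-values were adjusted by the Benjamini-Hochberg method over all 45037 probe sets and called at 0.05. The fit was tested on simulated data with the same spread for every probe set and array, unlike these arrays. That test speaks to the calculation only. P-values measure duplicate hybridizations of 1 pool per group, and 2 arrays per group limit precision. The genes followed, the lists and the motifs were chosen with earlier results of these data known. Named genes were the 10 followed, from each list the called genes with the 3 largest differences between TSA-treated and non-diabetic spleen or, with none called, the 2 with the largest, and the 5 nearest to Adipoq. Any other gene was named after its values were seen. Alternatives were each array left out, a replicate block, repeated quantile normalization, median centring, a filter on dim probe sets, an intensity trend, the mean of a gene's probe sets, 2 groups alone and the methods' t-test.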

Additional observations from a re-analysis of the deposited data

How the results depend on the processing

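Adipoq kept its sign in all 3 comparisons under the 11 alternatives that give it a value, between -3.43 and -3.37 for TSA-treated minus non-diabetic, -3.27 and -2.86 for TSA-treated minus diabetic and -0.54 and -0.13 for diabetic minus non-diabetic spleen. Car3 ranged from -3.92 to -1.39 for TSA-treated minus non-diabetic spleen, the last with the mean of its 4 probe sets, which also ended its call against diabetic spleen. Retn ranged from -1.63 to -1.13, and was also called with that mean and without TSA-treated replicate 1.

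The counts of calls moved far more. Leaving out an array leaves its group with 1, assumed to vary like the others. For TSA-treated against non-diabetic spleen 31 probe sets were called, 26 higher and 5 lower, and 0 to 2045 with 1 array left out: 2045 without TSA-treated replicate 1 (584 higher, 1461 lower), 714 without either diabetic array and 0 without either non-diabetic array. The 2 groups alone gave 714 (258 higher, 456 lower), repeated quantile normalization 60 and the methods' t-test 2, without the brightest probe sets of Adipoq and Car3. For diabetic against non-diabetic spleen 40 were called, 23 to 243 with 1 array left out, 243 without diabetic replicate 1 (38 higher, 205 lower), and 1 by the t-test. For TSA-treated against diabetic spleen 12 were called, 0 to 1047 with 1 array left out, 1047 without TSA-treated replicate 1 and 0 without any other array. There the filter on dim probe sets gave 22, and median centring, the t-test and the 2 groups alone 0 each.

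Replicate numbers did not pair the arrays, with correlations of replicate 1 deviations of -0.04, -0.34 and -0.10. With a replicate block the counts were 30 for TSA-treated and 33 for diabetic against non-diabetic spleen and 0 for TSA-treated against diabetic spleen. With the diabetic numbers crossed, an alternative chosen after seeing the data, they were 27, 41 and 0.

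With the 2 groups alone, 1 of the 73 other adipocyte genes, Ebf1 at -2.78, was called against non-diabetic spleen. That setting called 714 of all 45037 probe sets, so the call does not set these genes apart. Without TSA-treated replicate 1, Pnpla2, Cebpa and Hp differed by -1.35, -1.83 and -1.27 from non-diabetic spleen. Against diabetic spleen, Cebpa and Hp then differed by -1.80 and -1.95. These 3 genes are named for their values in that setting, where far more of all probe sets were called too. The median over the genes followed ranged with 1 array left out from -0.53 to -0.13 for TSA-treated minus non-diabetic, -0.26 to -0.17 for diabetic minus non-diabetic and -0.62 to -0.16 for TSA-treated minus diabetic spleen. With the filter on dim probe sets, which drops Lep and Cidec, it was -0.93, -0.43 and -0.66. The causes of these shifts were not tested beyond the arrays and genes each alternative removes.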

Other observations

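The probe set nearest to Adipoq after Car3, over all probe sets, was 1417867_at, which is unnamed in the annotation used here. It read 4.76 and 5.61 in TSA-treated, 7.05 and 7.29 in untreated diabetic and 7.94 and 7.87 in untreated non-diabetic arrays, at a distance of 0.51 from the Adipoq profile. It was 6.57-fold lower in TSA-treated than in non-diabetic spleen and was not called (limma, adjusted p = 0.0724).

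A second probe set of Thrsp, a lipid synthesis gene of fat and liver, 1424737_at, read 3.62 and 3.48 in TSA-treated, 4.52 and 5.04 in untreated diabetic and 5.54 and 5.26 in untreated non-diabetic arrays. Its brightest probe set read 4.90 and 5.11 in TSA-treated, 4.82 and 4.68 in diabetic and 4.70 and 4.71 in non-diabetic arrays and did not share that order. A probe set of Scd2, 1415824_at, read 2.86 and 3.59 in TSA-treated, 4.76 and 3.65 in diabetic and 5.31 and 6.58 in non-diabetic arrays, while the brightest Scd2 probe set read 8.59 and 7.49 in TSA-treated, 8.49 and 9.12 in diabetic and 8.75 and 8.60 in non-diabetic arrays. For the fatty acid transporter gene Cd36, the brightest probe set read 9.66 and 8.84 in TSA-treated, 9.24 and 9.36 in diabetic and 8.92 and 9.13 in non-diabetic arrays, so its groups overlapped, while 1450884_at read 7.76 and 7.49 in TSA-treated, 7.01 and 7.49 in diabetic and 6.67 and 6.46 in non-diabetic arrays. These probe sets were picked for their values, and none was called.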
